A study of Homo sapiens with 32 samples.

Results

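The 10 genes described are integrin genes, which encode the receptors that hold cells to the extracellular matrix. They were chosen by name: ITGA1, ITGA2, ITGA3, ITGA5, ITGA6 and ITGAV for alpha chains, and ITGB1, ITGB4, ITGB5 and ITGB8 for beta chains. They are 10 of 26 human integrin genes in the table and 10 of 24242 genes in all, and all 10 passed the filter on low values, which kept 22940 genes.

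New RNA, tagged with 5-ethynyl uridine (EU), was sequenced from HUH7 cells, an established human hepatoma line. EU is a uridine analogue that is built into new transcripts, so labelled RNA can be captured and older RNA left behind. In the 6 release groups, cells had been held in thymidine (2 mM, 24 hours), which stops DNA replication, grown 2 hours without it, and then blocked in mitosis with nocodazole (0.06 ug/mL, 16 hours), which takes apart microtubules. The loosely attached mitotic cells were shaken off, washed, replated and labelled with 0.5 mM EU for 40 minutes at 0, 40, 80, 105, 165 or 300 minutes of release. The asynchronous culture (Async), the group they were set against, was of the same line and was labelled in the same way. Each of these 7 groups has 3 samples in the labels, but the table holds 1 value per group. No test, error or p-value therefore stands behind any difference below. The sources used here do not say whether a stated time is the start or the end of labelling, and the whole series rests on 1 cell line.

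Integrins work as pairs of 1 alpha and 1 beta chain that span the membrane, bind matrix proteins outside the cell and connect to the actin cytoskeleton inside it. ITGB1 is the shared partner of many alpha chains, ITGAV pairs with several beta chains, and ITGB4 pairs only with ITGA6. Cells round up and lose most of their matrix contacts for mitosis, and spread again on entry into G1. Normal hepatocytes are known mainly for ITGA1, ITGA5 and ITGB1, whereas laminin-binding chains are better known from bile duct cells.

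By name, FPKM values are fragments scaled to a kilobase of length and to the reads of the column. Levels can then be set against each other between genes. In low genes the values, multiplied by the whole span of a gene with its introns, came in steps. At 0 minutes, 189 of 547 multi-exon genes of a few steps (34.6%) lay within 2% of a whole number of steps with the gene span, against 9 (1.65%) with the exon length. The step was set from the gene span and these genes were chosen by it, so the 2 lengths were not compared on equal terms. If the span was the length used, a long gene's value is an average over all its introns. The usual scaling to column reads would then give ITGAV at 165 minutes (1509 FPKM over 90.8 kb) an implausibly large share of all reads. The span and that scaling can thus hardly both hold, and which of them fails was not tested. If a step is 1 read, each value of the 10 genes rests on 99.8 to 58900 reads, and counting error alone is at most 10.01%. That covers counting only, since fragments copied by PCR and lacking molecular identifiers are not separate molecules.

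The promoter windows of 3 genes are shown because ITGA1, ITGA2 and ITGA5 were the first to reach 2 times their value at 0 minutes, in the values as deposited. For ITGA1 this held only with the span it shares with PELO: the rest of the gene was 2-fold higher at 165 minutes alone (2.30-fold). With columns brought to a common distribution or to equal medians, no member was 2-fold higher at 80 than at 0 minutes. Each runs 5′ to 3′ from 250 bases before to 50 bases after the start, in RefSeq GRCh38.p14. The positions are chr5:52787666-52787965 (plus strand) for ITGA1, chr5:52989102-52989401 (plus strand) for ITGA2 and chr12:54419217-54419516 (minus strand) for ITGA5. Capitals mark letters of TGANTCA (AP-1), GGAATG (TEAD), GGGCGG (SP1) or the CArG box (SRF) on either strand.
ITGA1: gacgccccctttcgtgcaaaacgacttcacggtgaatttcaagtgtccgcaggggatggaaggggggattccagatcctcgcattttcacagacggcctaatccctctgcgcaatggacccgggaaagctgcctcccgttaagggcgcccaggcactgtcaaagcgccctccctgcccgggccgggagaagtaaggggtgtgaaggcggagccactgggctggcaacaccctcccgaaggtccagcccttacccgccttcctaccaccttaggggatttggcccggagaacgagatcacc
ITGA2: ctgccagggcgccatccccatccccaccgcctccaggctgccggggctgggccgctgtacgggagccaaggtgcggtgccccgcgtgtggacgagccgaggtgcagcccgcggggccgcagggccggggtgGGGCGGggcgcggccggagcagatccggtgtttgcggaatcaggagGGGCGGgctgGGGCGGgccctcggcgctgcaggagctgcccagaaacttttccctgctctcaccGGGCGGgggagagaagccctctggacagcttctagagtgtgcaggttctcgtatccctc
ITGA5: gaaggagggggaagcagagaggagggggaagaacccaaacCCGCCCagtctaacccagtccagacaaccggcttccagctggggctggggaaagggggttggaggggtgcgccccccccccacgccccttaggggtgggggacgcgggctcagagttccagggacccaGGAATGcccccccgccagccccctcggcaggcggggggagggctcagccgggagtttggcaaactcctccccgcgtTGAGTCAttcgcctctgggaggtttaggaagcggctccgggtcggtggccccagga
The ITGA5 window holds TGAGTCA, a form of the AP-1 letters, at its start, together with 1 GGAATG and 1 GGGCGG on the other strand. It was the only gene with the AP-1 letters among the 8 members that have windows, 13 windows in all. Of 35116 windows in the table, 7.71% hold the AP-1 letters, 14.0% GGAATG, 45.0% GGGCGG and 1.29% a CArG box. ITGA2 holds 4 matches to GGGCGG, ITGA1 holds no match to any of these 4 motifs, and no member window holds a CArG box. GGAA, the ETS core, is part of GGAATG and is in 95.5% of all windows, so it was not marked. ITGA1 and ITGA2 are neighbours on chromosome 5 with the same strand, 30.1 kb apart, and no protein-coding gene lies between them. The ITGA1 window is also that of PELO, a ribosome rescue factor whose gene lies in the first part of ITGA1.

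Set against the asynchronous culture, the 10 genes showed no common direction at 0 minutes of release. Of the 10 genes, 5 were higher and 5 lower, and the median log2 fold was 0.01, beside -0.14 over all genes. A log2 fold here is that of FPKM + 1. ITGA5 was the only member at least 2-fold higher, in a table where 14.1% of genes were, and ITGA1 the only one at least 2-fold lower, where 19% were. With 1 of 10 genes each way, these counts set the members apart from all genes in neither direction, and both counts moved with the scaling and the higher one with the pseudocount. FPKM are relative within a column, and in a whole culture fewer cells making a transcript and less made per cell cannot be told apart. At 40 against 0 minutes no member differed by 2-fold in either direction, while 3.24% of all genes were higher and 2.05% lower. The log2 folds at 40 against 0 minutes lay between -0.03 for ITGB4 and 0.44 for ITGB5. ITGA1 and ITGA5 were at least 2-fold higher at 80 than at 0 minutes, 2 of 10 beside 20.1% of all genes, and none was 2-fold lower, beside 2.65%. Their fold changes, and those of the other members at 80 minutes, stand against an all-gene median of 0.31, close to the members' 0.35. When columns were brought to a common distribution or to equal medians, that all-gene median became -0.07 or -0.06, and no member was 2-fold higher. Set against the asynchronous culture, ITGA2 and ITGA5 were 2-fold higher at 80 minutes (2 of 10 beside 19.4% of all genes), ITGA3 joined them at 105 minutes (3 beside 16.7%) and ITGB8 at 165 minutes (4 beside 11.4%). No member was 2-fold lower at these 3 times, beside 10.8%, 9.29% and 8.81% of all genes. At 300 minutes ITGA2, ITGA3, ITGA5 and ITGB8 were at least 2-fold higher than in the asynchronous culture, 4 of 10 beside 9.84% of all genes, and ITGAV was 2-fold lower, beside 8.57%. ITGA3 missed 2-fold after quantile normalization, at a log2 fold of 0.83.

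**Figure D1:**
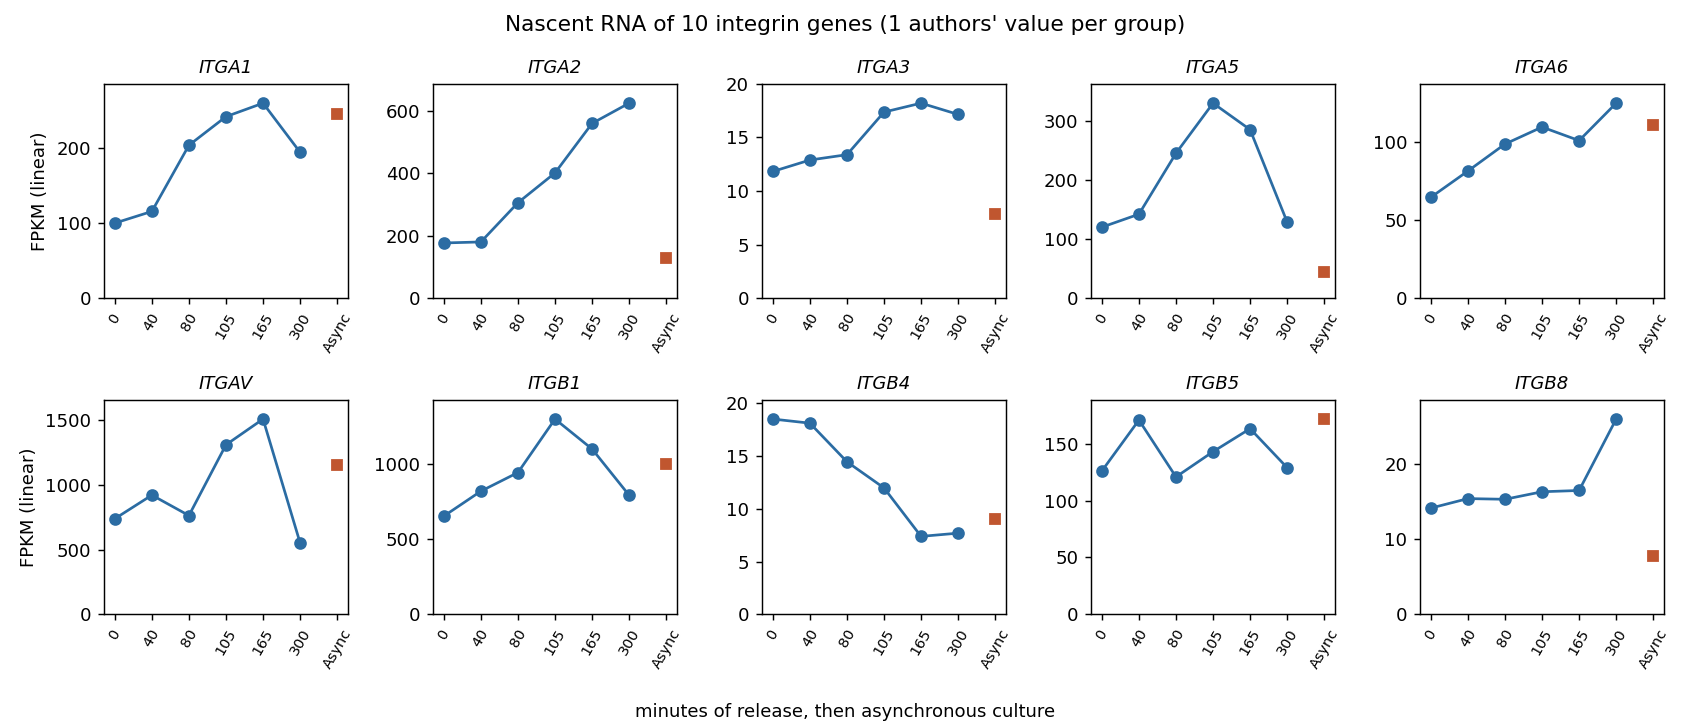
Level of each gene in FPKM on a linear axis from 0, against minutes of release (points joined by a line) and in the asynchronous culture (square, right); each point is the authors' 1 value for a group, with no error. ITGA5 and ITGB1 are highest at 105 minutes, ITGA1, ITGA3 and ITGAV at 165 minutes and ITGA2, ITGA6 and ITGB8 at 300 minutes, whereas ITGB4 is highest at 0 minutes and ITGB5 at 40 minutes.

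**Figure D2:**
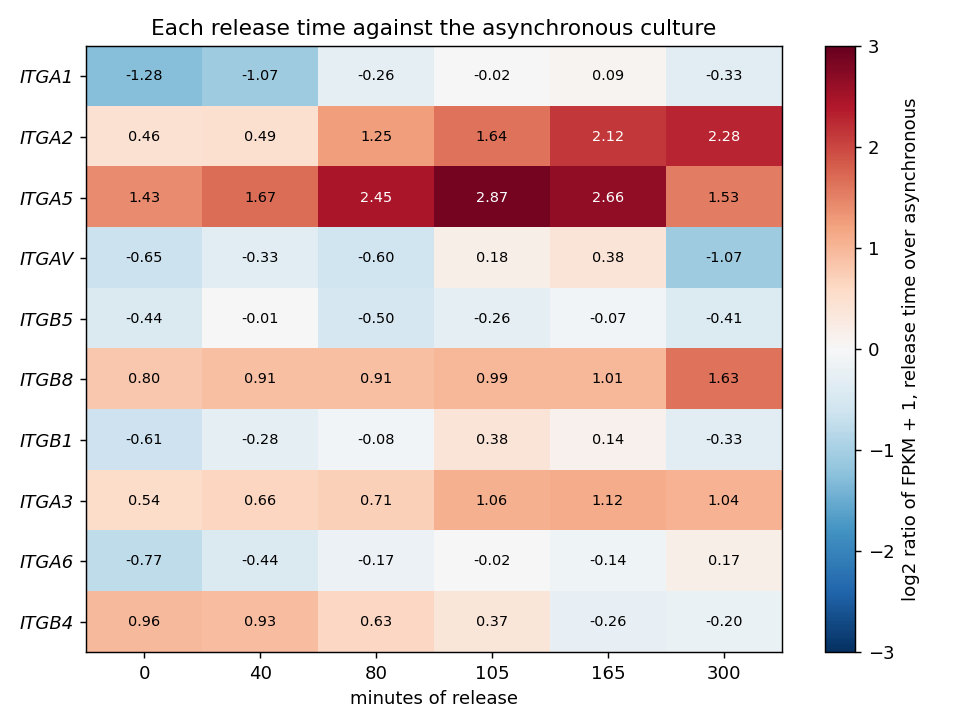
Log2 ratio of FPKM + 1 at each release time over the asynchronous culture, written in each cell and coloured from blue (lower) to red (higher); columns share the same asynchronous value. ITGA5 reaches 2.87 at 105 minutes and ITGA2 reaches 2.28 at 300 minutes, while ITGAV is at -1.07 at 300 minutes.

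Among the receptors for fibronectin and other RGD proteins in the 10 genes, ITGA5 stood furthest above the asynchronous culture and ITGAV was the most abundant alpha gene. ITGA5 pairs with ITGB1 as the classical fibronectin receptor. Its level was 121, 143, 246, 331, 286 and 129 FPKM at 0, 40, 80, 105, 165 and 300 minutes, against 44.3 FPKM in the asynchronous culture. Every release time was above the asynchronous culture, by 2.69-fold at 0 minutes and by a log2 fold of 2.87 at 105 minutes. At 300 minutes ITGA5 was 2-fold lower than at 165 minutes (log2 -1.14), as was ITGAV, 2 of 10 members beside 4.1% of all genes, and none was 2-fold higher, beside 3.04%. Its level at 300 minutes was close to that at 0 minutes (log2 0.10), and the sign of that small difference turned under either scaling, to -0.57 or -0.27. Genes on the other strand without a value in the table are annotated over the whole of ITGA5 and over parts of ITGA1, ITGA2, ITGA6, ITGAV, ITGB1, ITGB5 and ITGB8. The sources used here do not say whether strand was used in counting, so such reads cannot be told apart.

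ITGAV, the alpha chain of vitronectin and latent TGF-beta receptors, had 738.3, 920.7, 762.8, 1310, 1509 and 551.5 FPKM at 0, 40, 80, 105, 165 and 300 minutes, against 1156 FPKM in the asynchronous culture. It passed the asynchronous level at 105 and 165 minutes only. The value at 300 minutes was the lowest of all 7 columns, 2-fold under the asynchronous culture (log2 -1.07) and further under 165 minutes (log2 -1.45). Of its beta partners, ITGB5 binds vitronectin with it and ITGB8 is known for the activation of latent TGF-beta. ITGB5 had 126, 171, 121, 143, 163 and 129 FPKM at the 6 times, against 172 FPKM in the asynchronous culture. It was the only member that stayed under the asynchronous level throughout in the values as deposited. At 40 minutes, however, it was nearly level with the asynchronous culture (171.1 against 172.0 FPKM). After quantile normalization 0 minutes was above that level (log2 0.23), and 40 minutes was not tested under either scaling. Its highest release value was 1.41 times its lowest on the FPKM + 1 scale. ITGB8 had 14.2, 15.4, 15.4, 16.4, 16.5 and 26.1 FPKM, against 7.73 FPKM in the asynchronous culture. It was flat up to 165 minutes (log2 0.21 over 0 minutes) and highest at 300 minutes, 0.63 above 165 minutes on the log2 scale, where ITGAV was at its lowest.

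ITGB1, the common beta chain, had 653.7, 819.9, 944.1, 1300.5, 1101 and 792.8 FPKM at the 6 times, against 999.0 FPKM in the asynchronous culture. It was lowest at 0 minutes and highest at 105 minutes (log2 0.99 over 0 minutes), and back under the asynchronous level at 300 minutes (log2 -0.33). The place of 0 minutes as the lowest did not hold under scaling: 300 minutes was under it by log2 -0.28 after quantile normalization and -0.10 at equal medians, and 80 minutes by -0.36 after quantile normalization. It made up between 80.0% and 88.3% of the summed FPKM of the 4 beta genes in every column. ITGA5 and ITGB1 thus shared 105 minutes as the time of their highest value, but ITGB1 stayed within 2-fold of the asynchronous culture at every time.

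The collagen receptor chains ITGA1 and ITGA2, both partners of ITGB1, differed in timing although their genes adjoin: ITGA2 was highest at 300 minutes and ITGA1 at 165 minutes. ITGA2 had 177, 180, 306, 401, 559 and 624 FPKM at the 6 times, against 128 FPKM in the asynchronous culture. Each time was above the one before it and above the asynchronous culture in the values as deposited. The step from 0 to 40 minutes was small (log2 0.03) and was not tested under either scaling. After quantile normalization 80 minutes was just under 0 minutes (log2 -0.06). ITGA2 at 300 minutes was 3.51 times its value at 0 minutes and a log2 2.28 above the asynchronous culture. It was the only member 2-fold higher at 300 than at 80 minutes (log2 1.03), 1 of 10 beside 8.12% of all genes, and none was 2-fold lower, beside 13.8%. It was also the only member 2-fold higher at 300 than at 0 minutes, 1 of 10 beside 18.9%, and ITGB4 the only one 2-fold lower, beside 8.82%. Between those 2 times the member median was 0.39, beside 0.21 over all genes.

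ITGA1 had 99.9, 115, 203, 241, 259 and 194 FPKM at the 6 times, against 244 FPKM in the asynchronous culture. It began 2.43-fold under the asynchronous culture (log2 -1.28, but -0.69 after quantile normalization and -0.93 at equal medians) and reached its level at 165 minutes. Much of this signal lay in the first 16.1 kb, which is also the span of PELO on the same strand, so that reads of the 2 genes cannot be told apart there. That stretch had 351, 471, 1114, 1317, 1105 and 739 FPKM at the 6 times and 1041 FPKM in the asynchronous culture. It held 33.1% of the ITGA1 signal at 0 minutes and 51.5% at 80 minutes, in 171.3 kb of gene. The remaining 155.2 kb had 73.8, 78.6, 109, 130, 171 and 137 FPKM, against 162 FPKM in the asynchronous culture. Without the PELO span, ITGA1 at 80 minutes was 1.47-fold over 0 minutes (log2 0.55), so only ITGA5 was left 2-fold higher, but at 0 minutes it was still 2-fold under the asynchronous culture (log2 -1.12). At 300 against 80 minutes ITGA1 also turned in sign, with a log2 fold of -0.07 over the whole gene and 0.33 without the PELO span.

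The laminin receptor chains were ITGA3 and ITGA6, partners of ITGB1, and ITGB4, which anchors ITGA6 to keratin filaments in hemidesmosomes. ITGA6 had 64.5, 81.2, 98.4, 109, 101 and 124 FPKM at the 6 times, against 111 FPKM in the asynchronous culture. It was lowest at 0 minutes in the values as deposited (log2 -0.77 to the asynchronous culture) and passed that level at 300 minutes alone (log2 0.17). ITGB4 ran the other way, with 18.5, 18.1, 14.5, 12.0, 7.38 and 7.69 FPKM, against 9.01 FPKM in the asynchronous culture. It was 2-fold lower at 300 than at 0 minutes (log2 -1.17, but -0.91 after quantile normalization), and the chain and its only partner gene were thus highest at opposite ends of the release. A lower value at 300 than at 0 minutes was common among genes of low level: 3845 genes with a mean of 7 to 20 FPKM had a median log2 fold of -0.44, and the 16 integrin genes outside the 10 had -0.59. GALK1, a galactose kinase gene on the other strand, overlaps 6225 bases of ITGB4 and had 86.7, 176, 83.2, 66.3, 46.6 and 54.3 FPKM, against 30.8 FPKM in the asynchronous culture. Its part in the ITGB4 values was not tested. ITGA3 had 11.8, 12.9, 13.4, 17.4, 18.2 and 17.1 FPKM, against 7.82 FPKM in the asynchronous culture. It lay above the asynchronous culture at every time and was 2-fold higher at 105, 165 and 300 minutes (log2 1.06, 1.12 and 1.04).

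The direction at 80 against 0 minutes depended on the scaling of the columns for 6 of the 10. ITGA1, ITGA5 and ITGB5 had log2 folds of 1.02, 1.02 and -0.06, ITGB4 had -0.34, and these 4 kept their sign under both scalings. ITGA2 (0.79), ITGA6 (0.60), ITGB1 (0.53) and ITGAV (0.05) turned to -0.06, -0.01, -0.36 and -0.84 after quantile normalization. ITGA3 (0.17), ITGB8 (0.11) and ITGAV turned to -0.21, -0.27 and -0.35 with columns at equal medians. At 165 against 0 minutes, ITGA1, ITGA2, ITGA5 and ITGAV were 2-fold higher, 4 of 10 beside 19.1% of all genes, and ITGB4 was 2-fold lower, beside 7.11%. At 105 against 0 minutes ITGA1, ITGA2 and ITGA5 were 2-fold higher, 3 of 10 beside 20.3%, and none was 2-fold lower, beside 3.99%. Whether the counts at 105 and 165 minutes hold under either scaling was not tested. The median over all kept genes was 40.1 FPKM at 0 minutes, 53.5 FPKM at 105 minutes and 50.1 FPKM at 165 minutes. Without the PELO span, ITGA1 was 1.75-fold over 0 minutes at 105 minutes (log2 0.80), under 2-fold, and 2.30-fold at 165 minutes.

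ITGAV and ITGB1 each have a transcript with a later start, which lets the first part of the gene be set apart from the rest if both transcripts end at the same place. In ITGAV the first 10.1 kb had 1054, 1444, 1724, 2169, 1650 and 671.9 FPKM at the 6 times, against 1265 FPKM in the asynchronous culture. The remaining 80.7 kb had 719.6, 889.8, 706.0, 1259, 1500 and 544.4 FPKM, against 1150 FPKM in the asynchronous culture. At 80 minutes the first part was 1.63-fold over 0 minutes while the rest was level with it (log2 -0.03), and the rest was 0.41 times the first part, against 0.909 in the asynchronous culture. By 165 minutes the ratio was 0.909 as well, and at 300 minutes both parts were low.

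In ITGB1 the first 22.3 kb had 685.9, 905.8, 1356, 1338, 935.9 and 772.8 FPKM, against 1133 FPKM in the asynchronous culture. The remaining 35.2 kb had 644.9, 793.0, 804.2, 1292, 1162 and 802.6 FPKM, against 956.0 FPKM in the asynchronous culture. At 80 minutes the first part was 1.97-fold and the rest 1.25-fold over 0 minutes, and the parts were level at 105 minutes. In ITGAV the first part was thus highest at 105 minutes and the rest at 165 minutes. In ITGB1 the first part was about level at 80 and 105 minutes (log2 -0.02 at 105 against 80 minutes), and the rest was highest at 105 minutes. Whether these times hold under either scaling was not tested. A low remainder at 80 minutes was common to other genes too: among 252 genes of 50 to 120 kb with such nested transcripts, the ratio of the later-start to the full transcript at 80 minutes, relative to the asynchronous culture, had a median of 0.895 and lay below 1 in 184 (73.0%). ITGAV was at 0.871 and ITGB1 at 0.847 on that measure. Some of the 252, such as ADD1 and HELLS, had the same value for both transcripts in every column and could not lie below 1. The spans are those of GENCODE release 29 on GRCh38, while the authors' build was hg19.

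**Figure D3:**
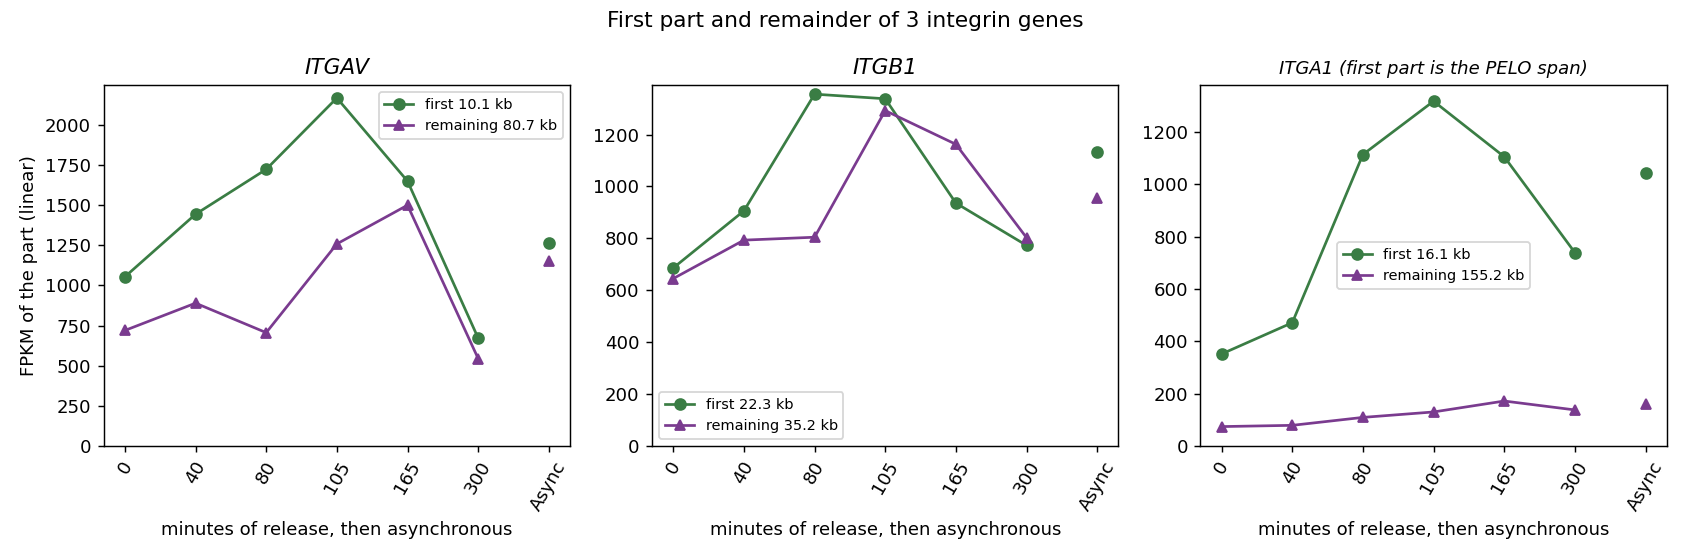
FPKM of the first part (circles) and of the remainder (triangles) of ITGAV, ITGB1 and ITGA1 on linear axes from 0, against minutes of release and in the asynchronous culture (unjoined points, right); the first part of ITGA1 is the span it shares with PELO. At 80 minutes the first parts of ITGAV and ITGB1 are at 1724 and 1356 FPKM and the remainders at 706.0 and 804.2 FPKM.

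The make-up of the alpha chain RNA differed between groups, also where its sum was alike. The 6 alpha genes summed to 1212, 1453, 1630, 2410, 2732 and 1641 FPKM at the 6 times, against 1692 FPKM in the asynchronous culture. The 4 beta genes summed to 812.6, 1025, 1095, 1472, 1288 and 955.7 FPKM, against 1188 FPKM. At 300 minutes the alpha sum was thus close to the asynchronous one, but ITGA2 made up 38.0% of it, against 7.57% in the asynchronous culture, and ITGAV made up 33.6%, against 68.4%. ITGA2 was the most abundant alpha gene at 300 minutes only, and ITGAV was so in every other column. ITGA5 held 15.1% at 80 minutes, its largest share, against 2.62% in the asynchronous culture. These are shares of new RNA and say nothing of protein on the cell surface.

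**Figure D4:**
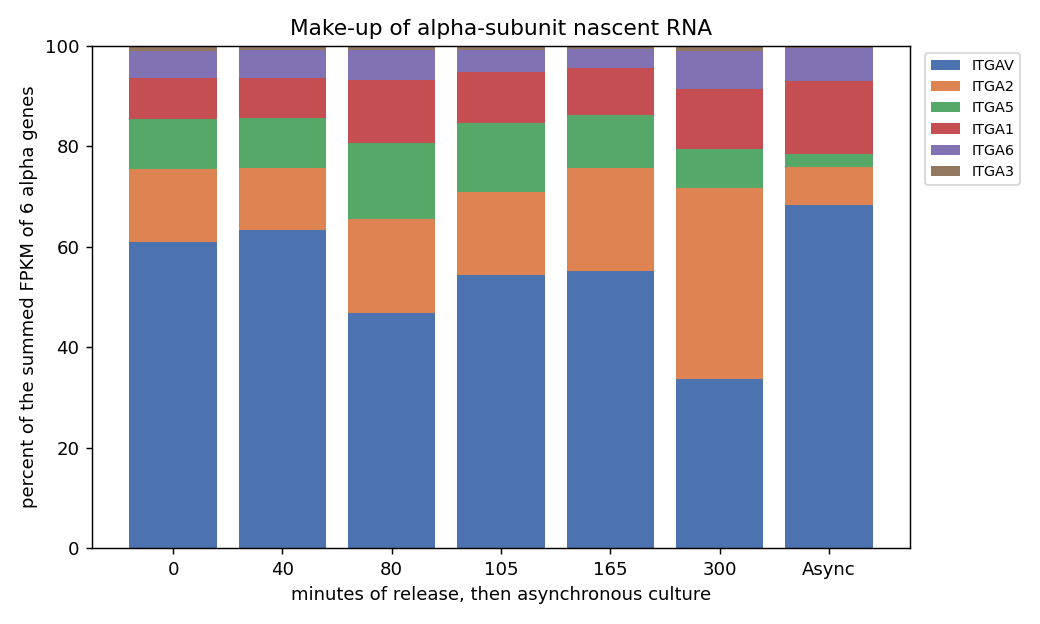
Percent of the summed FPKM of the 6 alpha genes held by each, as stacked bars from 0 to 100, at each time of release and in the asynchronous culture; ITGA1 includes the span shared with PELO. ITGAV holds 33.6% at 300 minutes and 68.4% in the asynchronous culture, and ITGA2 holds 38.0% and 7.57%.

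The 10 genes fell into 2 ranges of level. ITGB1, ITGAV, ITGA2, ITGA1, ITGB5 and ITGA6 had over 60 FPKM in every column, ITGA5 did so at every release time, and ITGA3, ITGB4 and ITGB8 stayed under 30 FPKM. This grouping was made after the values were seen. The low 3 lay within the range of the 16 integrin genes outside the 10, which had 3.40 to 32.6 FPKM at 0 minutes and 2.10 to 37.0 FPKM in the asynchronous culture. Of those 16, 15 were higher at 0 minutes than in the asynchronous culture, all but ITGAE, and 6 were 2-fold higher (12 higher with 2 at 2-fold after quantile normalization, and 16 with 12 at equal medians), among them ITGA7 (4.21-fold), ITGB7 (2.74-fold), ITGA10 (2.32-fold) and ITGAX (2.28-fold), of which ITGB7 and ITGA10 missed 2-fold after quantile normalization (log2 0.92 and 0.82). They include 8 genes taken here as leukocyte and platelet integrins, which summed to 140 FPKM at 0 minutes and 69.2 FPKM in the asynchronous culture. These were ITGA2B, ITGA4, ITGAD, ITGAL, ITGAM, ITGAX, ITGB2 and ITGB7. The sum leaves out ITGAE (29.8 FPKM at 0 minutes, against 37.0 FPKM) and ITGB3 (11.8 FPKM, against 9.48 FPKM). Over 3845 genes with a mean of 7 to 20 FPKM the median log2 fold at 0 minutes was 0.61, with 1067 at least 2-fold higher and 285 lower. ITGA3, ITGB4 and ITGB8 had log2 folds of 0.54, 0.96 and 0.80 in that comparison, and the part of low-level signal in them was not tested. ITGB6, an epithelial partner of ITGAV and not one of the 10, left this range: it had 12.0, 11.7, 16.1, 37.6, 72.1 and 45.1 FPKM at the 6 times, against 8.32 FPKM in the asynchronous culture. Its log2 fold of 2.97 at 165 minutes over the asynchronous culture was above the highest of ITGA5.

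**Figure D5:**
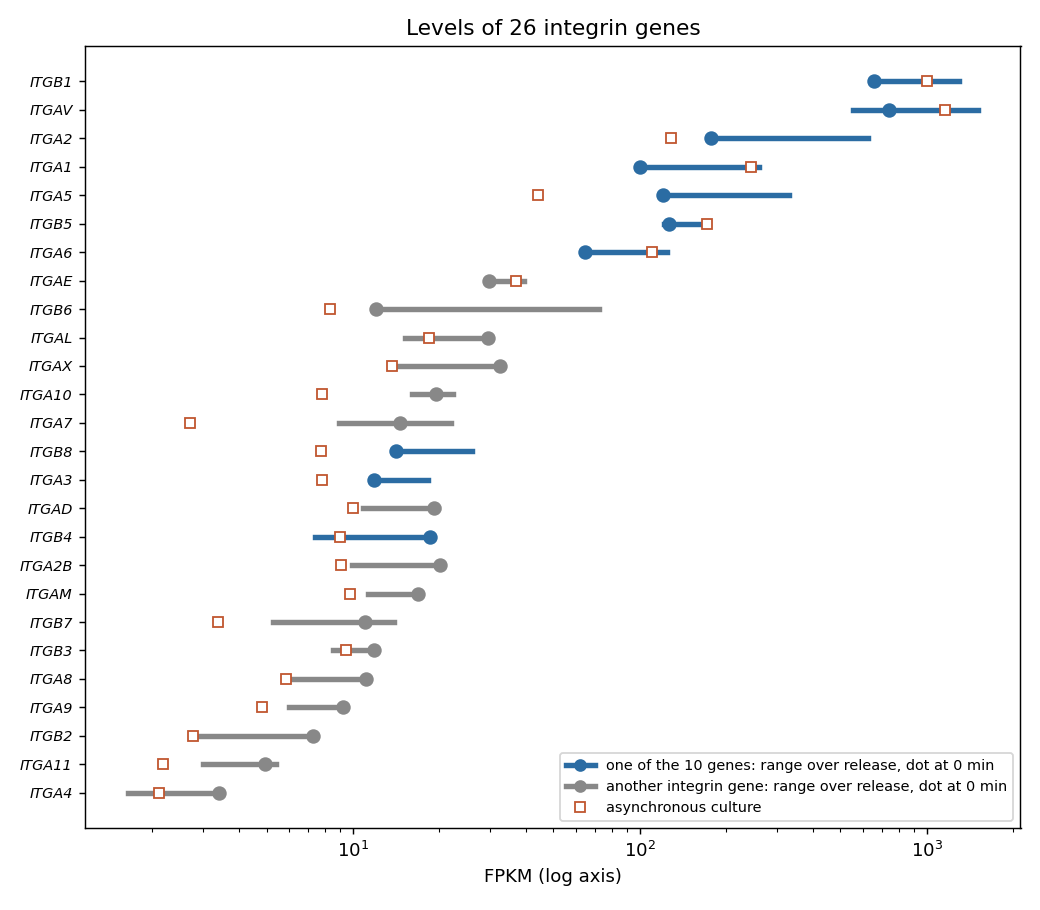
Range of FPKM over the 6 release times (bar) with the value at 0 minutes (dot) and the asynchronous culture (open square) for 26 integrin genes on a log axis, the 10 described here in blue and the other 16 in grey. The 7 genes at the top are all among the 10, whereas ITGB8, ITGA3 and ITGB4 lie among the other integrin genes.

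The proteins that integrins act through were read from lists of pathway genes. Of 39 genes for integrin activation and focal adhesions, set against the asynchronous culture, none was 2-fold higher (beside 14.1% of all genes) and 11 were 2-fold lower (beside 19%) at 0 minutes, with a median log2 fold of -0.56 beside -0.14 over all genes. This one-sided count depended on the scaling: 4 were 2-fold higher and 4 lower after quantile normalization (median 0.01), and 4 higher and 3 lower with columns at equal medians (median -0.20). VCL, which encodes vinculin, the link from talin to actin, had 265 FPKM at 0 minutes, against 827 FPKM in the asynchronous culture. TNS3, TLN2 and PARVA, a tensin, a talin and a parvin, were 2.75-, 2.65- and 2.52-fold lower. Under the 2 scalings VCL and TLN2 stayed at least 2-fold lower, TNS3 missed it after quantile normalization (log2 -0.86) and PARVA missed it under both (log2 -0.82 and -0.98). At 80 against 0 minutes GIT1, a scaffold of focal adhesion turnover, was the only one of the 39 at 2-fold (2.41-fold higher), beside 20.1% of all genes, and it missed 2-fold under both scalings (log2 0.60 and 0.87). At 300 against 80 minutes 4 were 2-fold higher and 4 lower, beside 8.12% and 13.8% of all genes. The higher ones were led by PTK2B, a focal adhesion kinase relative, at 57.7 FPKM at 300 minutes against 16.5 FPKM at 80 minutes. The other 3 were TNS3, PARVA and SRC. The lower ones were NEDD9 (92.7 FPKM at 300 minutes, against 482 FPKM at 80 minutes), RASGRP2, ZYX and VASP, of which ZYX and VASP missed 2-fold after quantile normalization (log2 -0.95 and -0.79).

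Of 14 genes that restrain integrins or carry them through endosomes, 8 were at least 2-fold higher at 80 than at 0 minutes (beside 20.1% of all genes) and none lower (beside 2.65%), with a median log2 fold of 1.07 beside 0.31 over all genes. After quantile normalization 1 was 2-fold higher (median 0.24, beside -0.07) and with equal medians 3 were (median 0.67, beside -0.06), so the median stayed above that of all genes while most single calls were lost. ITGB1BP1, which competes with talin for the ITGB1 tail, had 438 FPKM at 80 minutes, against 122 FPKM at 0 minutes. SHARPIN, another integrin inhibitor, was 3.17-fold higher, and RAB11A and RAB21, which recycle integrins, were 2.83- and 2.23-fold higher. After quantile normalization ITGB1BP1 alone of these 4 was at 2-fold (log2 1.00), and at equal medians RAB21 missed it (log2 0.75). At 300 against 80 minutes 2 of the 14 were 2-fold lower, beside 13.8% of all genes, and none higher, beside 8.12%. The 2 were RAB25 and SHARPIN, of which SHARPIN missed 2-fold after quantile normalization (log2 -0.91). At 0 minutes against the asynchronous culture, FABP3 and RAB25 were 2-fold higher, beside 14.1% of all genes. ARF6 and EEA1 were 2-fold lower, beside 19%. After quantile normalization RAB25, ARF6 and EEA1 missed 2-fold (log2 0.87, -0.98 and -0.66), and EEA1 did so at equal medians (log2 -0.91).

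The 49 matrix genes in the table that serve as ligands were split: against the asynchronous culture, 0 minutes was 2-fold higher for 9 (beside 14.1% of all genes) and 2-fold lower for 7 (beside 19%), with a median log2 fold of 0.13 beside -0.14 over all genes. This split moved with the scaling: 4 were higher and 4 lower after quantile normalization (median 0.03). With columns at equal medians 12 were higher and 4 lower (median 0.45). NID1, a basement membrane linker of laminin and collagen, had 68.0 FPKM at 0 minutes, against 384 FPKM in the asynchronous culture, and COL1A1, a fibrillar collagen, had 25.4 FPKM, against 3.002 FPKM. At 80 against 0 minutes 2 were 2-fold higher, COL1A2 and CCN2, and 1 was lower, LAMA4, beside 20.1% and 2.65% of all genes. CCN2 missed 2-fold after quantile normalization (log2 0.70), and 3 matrix genes were 2-fold lower under either scaling. CCN2, a matricellular ligand of several integrins, had 628 FPKM at 300 minutes, against 3538 FPKM at 80 minutes, and was 1 of 5 that were 2-fold lower there, where 2 were higher, beside 13.8% lower and 8.12% higher over all genes. LTBP1, which stores the latent TGF-beta that ITGAV receptors bind, was 3.29-fold higher in the same step.

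Among 16 membrane partners of integrins, 3 were 2-fold higher and 3 were 2-fold lower at 0 minutes when set against the asynchronous culture, beside 14.1% and 19% of all genes. Under either scaling 6 were 2-fold higher and 3 lower. In the values as deposited the 3 higher were the tetraspanins CD63, CD9 and CD82 (3.87-, 2.87- and 2.03-fold). CD82 missed 2-fold after quantile normalization (log2 0.49). The 3 lower were SDC2, TSPAN4 and SDC1 (5.66-, 3.63- and 3.17-fold). SDC1 and SDC2 are syndecans, while TSPAN4 is a tetraspanin too, so tetraspanins went both ways. At 80 against 0 minutes 5 were 2-fold higher, beside 20.1% of all genes, led by CAV1 (248 FPKM at 80 minutes, against 78.2 FPKM at 0 minutes), and none was lower, beside 2.65%. Under the 2 scalings 1 and 2 were 2-fold higher, and CAV1 missed it after quantile normalization (log2 0.94). CD81, BSG and TSPAN4 were 2-fold lower at 300 than at 80 minutes, beside 13.8% of all genes. Of 7 hemidesmosome and keratin genes in the table, PLEC, which ties ITGB4 to keratin, was 2-fold higher at 0 minutes (435 FPKM, against 202 FPKM in the asynchronous culture). That was 1 of 7 beside 14.1% of all genes, and none was 2-fold lower, beside 19%. Under either scaling 2 of the 7 were 2-fold higher and none lower. KRT19 and DST were 2-fold higher at 300 than at 80 minutes (2.98- and 2.74-fold), 2 of 7 beside 8.12%, and none lower, beside 13.8%.

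For each gene the 3 genes most like it were named by the smallest root mean square difference of centred log2 values over the 7 columns, each column 1 value. For ITGA5 these were MAP2K3 (0.113), VEGFA (0.135) and H2BC21 (0.137), for ITGA2 IL15 (0.159), CAPN15 (0.163) and SWT1 (0.164), and for ITGAV FSTL1 (0.083), DNAJC1 (0.108) and ELFN1 (0.151). ITGA1 was nearest to FAM120A (0.055), SCRN1 (0.064) and TNPO1 (0.076), and ITGB1 to CHST3 (0.055), ACAP3 (0.066) and GATA4 (0.068). ITGA6 was nearest to G6PC3 (0.060), DGKZ (0.061) and RALY (0.061), ITGB5 to LIMS4 (0.055; a gene with near-identical copies), GATAD2A (0.0999) and TACC2 (0.102), and ITGB8 to ST6GALNAC4 (0.115), B4GALNT3 (0.115) and NID2 (0.124). ITGA3 was nearest to PAK6 (0.067), GDPD5 (0.074) and UBE2B (0.075), and ITGB4 to CSF2RA (0.073), LINC00398 (0.074) and HIGD1C (0.078). Among the 10 themselves the closest pair was ITGB8 and ITGA3 (0.227) and the farthest ITGB4 and ITGA2 (1.16).

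Of the hepatoma markers checked against the label, 11 of 11 were present in all 7 columns. Their summed level was 3785 to 5904 FPKM over the release times, against 18121 FPKM in the asynchronous culture. All 6 release values lay under the asynchronous one for the 8 secreted-protein genes of the list, whereas KRT8 (1200 FPKM at 105 minutes, against 564 FPKM), KRT18 (1941 FPKM at 105 minutes, against 919 FPKM) and HNF4A (1553 FPKM at 165 minutes, against 947 FPKM) passed it. The 8 blood markers summed to 57.5 to 127 FPKM over the release, against 54.9 FPKM, with HBB at 0 in every column but 40 minutes, and the 5 endothelium and stroma markers to 62.6 to 130 FPKM, against 50.5 FPKM. If a step is 1 read and all columns were scaled alike, the step sizes give relative depths. These were 1.15 to 1.75 times that of 0 minutes for the other release columns, and 1.88 times for the asynchronous column. The part of these marker and depth differences in the integrin values was not tested.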

How the data were processed

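Nascent RNA was sequenced from 32 samples of HUH7 cells in 11 groups. The 7 groups with a column in the table were used. The groups without EU or with spike-in RNA were not used here, and no background stands beside the values. Per the file headers, the authors deposited FPKM per RefSeq transcript, with 1 column per group. Bowtie2 2.2.9, TopHat, bcl2fastq, bedtools and hg19 stand in the submitters' processing notes. Not given in the sources used here are the role of each tool, the counting and its strand, background subtraction, the pooling of the 3 libraries and whether spike-in samples entered the asynchronous column.

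Transcripts were matched to symbols through a RefSeq table of GRCh38.p14, used for names and neighbours, and 47127 of 48205 (97.8%) matched. Each gene was given the mean of its distinct transcript values, of which ITGAV and ITGB4 had 2, ITGB1 had 3 and the other members 1. Genes at 1 FPKM or more in at least 3 columns were kept. Folds are of FPKM + 1, with 2-fold as threshold, which understates differences of low genes. Spans came from GENCODE release 29 (GRCh38). The value of a first part was obtained from the full and later-start transcripts by length, for ITGAV and ITGB1 from the longest transcript. The steps were tested on simulated data, with pandas 2.3.3 on Python 3.11.15.

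Named genes were all integrin genes, up to the 4 largest at 2-fold or more in each direction per list at 5 FPKM or more in the higher group, in 0 minutes against the asynchronous culture, 80 against 0 and 300 against 80 minutes, and the 3 nearest profiles. The members and lists were chosen with earlier results of these data known. The parts of ITGA1, ITGAV and ITGB1 were separated after the values were seen. Alternatives were a pseudocount of 0.1 FPKM, no filter, a filter of 10 FPKM, quantile normalization, columns at equal medians and the transcript with the highest mean.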

Additional observations from a re-analysis of the deposited data

How the results depend on the processing

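With 1 value per group, no difference has an error and leaving out a library could not be done. No paired analysis was possible because the table gives 1 pooled value per group. Of the 50 fold differences of single members, all 50 kept their sign and their side of 2-fold without a filter, with a filter of 10 FPKM and with the transcript of highest mean, and 49 did with a pseudocount of 0.1 FPKM. After quantile normalization 32 did, and with columns at equal medians 39 did. The 50 cover 0 and 300 minutes against the asynchronous culture, 80 and 300 against 0 minutes, and 300 against 80 minutes. Folds of members in other comparisons were not tested under these settings. The median of the members at 80 against 0 minutes was -0.034 after quantile normalization and -0.040 with equal medians, in place of 0.35. The count at least 2-fold higher in that comparison was 0 under either scaling and 1 with ITGA1 taken without the PELO span, in place of 2. At 0 minutes against the asynchronous culture the count 2-fold higher was 2 with a pseudocount of 0.1 FPKM (ITGB4 at 1.03), 2 after quantile normalization (ITGA2 at 1.19) and 3 with equal medians (ITGB4 at 1.30, ITGB8 at 1.13), in place of 1. The count 2-fold lower was 0 under either scaling, in place of 1, with ITGA1 at -0.69 and -0.93. At 300 against 0 minutes the count 2-fold higher was 2 after quantile normalization (ITGB8 at 1.04), in place of 1, with ITGAV at -1.03 and ITGB4 at -0.91. In that comparison ITGA5, ITGB1 and ITGB5 changed sign under both scalings, to -0.57, -0.28 and -0.65 after quantile normalization and -0.27, -0.10 and -0.34 with equal medians. After quantile normalization ITGB5 at 0 minutes against the asynchronous culture was at 0.23, and ITGA1 and ITGB1 at 300 against 80 minutes were at 0.02 and 0.08. Scaling also moved the share of higher calls among all genes: 88.3% at 80 against 0 minutes became 59.7% (quantile) and 60.2% (equal medians), 42.7% at 0 minutes against the asynchronous culture became 50.2% and 68.1%, and 32.4% with a filter of 10 FPKM. At 300 against 0 minutes 68.2% became 49.5% and 34.8%, and at 300 against 80 minutes 37.0% became 49.98% after quantile normalization. The causes were not tested.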
